A study of Homo sapiens with 6 samples.

Results

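Laminin-332 and the hemidesmosome were followed through 8 genes: LAMA3 and LAMB3, which encode 2 of the chains of laminin-332, the integrin subunit genes ITGA6 and ITGB4, the tetraspanin gene CD151, the collagen XVII gene COL17A1, and the plakin genes DST and PLEC. They were 8 of the 20802 genes measured, and each was read through 1 amplicon. The genes were chosen by name with measured values of these same libraries in view, namely their reads in the GIRK1 libraries against the eGFP and WT libraries. Their levels and differences are therefore given as a description, with no test of their own, and the choice had no threshold.

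Laminin-332 is a heterotrimer, with α3 and β3 among its chains, that epithelial cells lay down under their basal side. Integrin α6β4 binds it from the cell membrane, where collagen XVII and CD151 join it in the hemidesmosome, and the plakins plectin and BPAG1e (a product of DST) tie the complex to the keratin filaments inside. Basal mammary epithelial cells rest on the basement membrane in this way, and loss of these proteins in the skin causes blistering diseases.

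MCF10A is an established, benign human mammary epithelial cell line. The 6 libraries were labelled as 2 replicates each of the untransfected line (WT), of cells stably carrying the pIRES2eGFP plasmid alone (eGFP) and of cells stably carrying human GIRK1 in that plasmid (GIRK1). Transfected cells of both kinds were grown in G418 and sorted by their eGFP fluorescence, which the WT cells were not, and no source says that a line was a single clone or that replicates were separate cultures. P-values therefore measure only the spread between these libraries, which may be technical. The libraries held 2506120 and 16040556 reads for WT, 5126930 and 10233974 for eGFP, and 11107309 and 10346572 for GIRK1, so that 3 reads, taken as the smallest level the depth can show, stood for 0.187 to 1.20 RPM (reads of a gene scaled to the total of its library). KCNJ3, the gene of GIRK1, had 217 and 355 RPM in the GIRK1 libraries and no read in either eGFP library or in WT replicate 2. The names of the GIRK1 data carry a tag that the other 4 libraries do not share. What it stands for is not known, and it cannot be told apart from the condition.

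The library labelled WT replicate 1 went against its label and stood apart before any comparison. KCNJ3 had 48 reads (19.2 RPM) there. The basal mammary markers measured (KRT5, KRT14, KRT17, TP63, EGFR, CDH3 and SNAI2) summed to 60.3 RPM in it and to between 6826 and 12862 RPM in the other 5 libraries, with KRT5 the highest in 4 of those 5 and KRT17 in GIRK1 replicate 2. KRT14 and KRT17 had no read in it. The 12 luminal markers summed to 17566 RPM in it and to between 698 and 1239 RPM in the others, with TFF1 the highest in it, and ESR1, PGR, KRT19 and TFF1 had no read in any of the other 5. The 3 immune markers (PTPRC, CD3E and LYZ) had no read in any library. All 8 laminin-332 and hemidesmosome genes were lower in WT replicate 1 than in every other library, as were 35.0% of the 11279 genes tested in the comparison of GIRK1 with eGFP. Their summed level was 592 RPM there, against 3008 RPM in WT replicate 2. WT replicate 1 was therefore kept out of the fits and is given beside them as values. WT replicate 2 then stood alone for the WT line, and its spread was assumed to be that of the other groups.

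**Figure D1:**
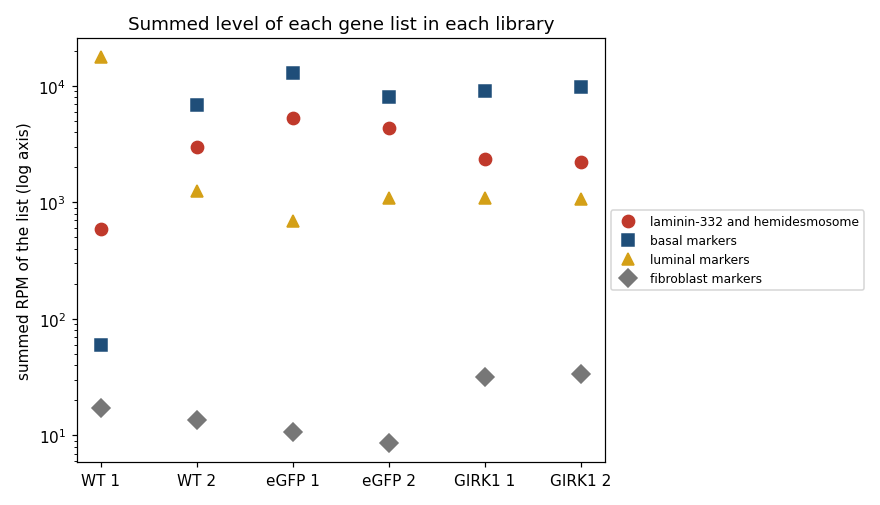
Summed RPM (log axis) of the 8 laminin-332 and hemidesmosome genes and of 3 marker lists in each of the 6 libraries, 1 point per list and library. WT replicate 1 has the lowest basal sum (60.3 RPM) and the highest luminal sum (17566 RPM), and among the other libraries the red points are lowest in GIRK1 (2373 and 2233 RPM).

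LAMB3, which encodes the β3 chain, lies on chromosome 1 from 209614870 to 209652466 on the minus strand (GRCh38, GENCODE v29). RefSeq gives it 3 promoter windows of 250 bases before and 50 after a transcription start, and the third holds a match to the AP-1 motif, searched as TGANTCA on both strands (its reverse complement has the same form). The stretch of that window before the first annotated exonic base is shown because LAMB3 had the largest difference of the 8 genes. It is chr1:209651395-209651624 on the minus strand (GRCh38.p14, RefSeq), with the match, which begins 67 bases before the start, in capitals.
LAMB3: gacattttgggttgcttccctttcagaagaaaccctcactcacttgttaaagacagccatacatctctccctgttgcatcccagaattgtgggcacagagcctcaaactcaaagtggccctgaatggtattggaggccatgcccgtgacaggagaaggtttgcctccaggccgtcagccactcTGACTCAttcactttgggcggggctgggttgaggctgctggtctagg

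The LAMA3 window held the same motif 2 times, and its sites are shown with 10 bases on either side because LAMA3 encodes the partner chain. They lie on chromosome 18, plus strand, at chr18:23872885-23872911 and chr18:23872941-23872967, and begin 125 and 69 bases before the RefSeq start at 23873020. GENCODE places the start of 1 short LAMA3 transcript (NM_000227) at 23872840, so both sites lie after that start.
LAMA3 first site: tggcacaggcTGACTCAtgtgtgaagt
LAMA3 second site: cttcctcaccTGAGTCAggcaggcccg
Promoter windows were at hand for 5 of the 8 genes (LAMA3, LAMB3, COL17A1, ITGA6 and DST). Of their 10 windows, which overlap in part, 3 held an AP-1 match (LAMA3, LAMB3 and DST, where it begins 25 bases after the start), against 7.71% of all 35116 windows of the same length. A GC box (GGGCGG) was in 7 of 10 windows against 44.95% of all, a TEAD motif (CATTCC) in 1 against 14.03%, and a TATA box (TATAAA) in 2 against 11.53%. The AP-1 matches shown overlap no match of the other motifs. These matches are a description of the letters in the windows and not of binding.

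The first question was how the laminin chains stood in GIRK1 cells beside both controls. LAMB3 had 1747 and 1790.1 RPM in the eGFP libraries, 768 RPM in WT replicate 2, and 258 and 259.9 RPM in the GIRK1 libraries. In WT replicate 1 it had 9 reads, or 3.59 RPM (exact 95% interval 1.64 to 6.82 RPM, counting error only). Both GIRK1 libraries thus lay far below every other library except WT replicate 1, and replicates of 1 group lay close together. The mean level was 1768 ± 30.7 RPM in eGFP and 259 ± 1.26 RPM in GIRK1 (SD, n = 2 each), a 6.83-fold lower level in GIRK1. WT replicate 2 lay between them, 2.97-fold above the GIRK1 mean and 2.30-fold below the eGFP mean.

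On the log2 scale of the edgeR quasi-likelihood fit, LAMB3 differed by -2.81 (SE 0.21) between GIRK1 and eGFP. Against WT replicate 2 the difference was -1.55 (SE 0.24), and eGFP stood 1.27 (SE 0.26) above WT replicate 2. The LAMB3 difference was thus larger beside the plasmid control than beside the parental library, and the control lay above that library. These comparisons share libraries and are not independent of each other.

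LAMA3, the gene of the α3 chain (chromosome 18, 23689443 to 23956222, plus strand), gave few reads. It had 17.0 and 15.1 RPM in eGFP, 12.1 RPM in WT replicate 2, 10.6 and 9.96 RPM in GIRK1, and 5.99 RPM (15 reads) in WT replicate 1. The order of the groups was that of LAMB3, with both GIRK1 libraries below the eGFP libraries and WT replicate 2, but the distances were small. The log2 difference from eGFP was -0.68 (SE 0.27) and that from WT replicate 2 was -0.21 (SE 0.32).

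The LAMA3 amplicon does not read the main form of the gene in laminin-332. It lies on NM_198129, a long transcript that starts at 23689443, and 2 of the 4 RefSeq coding transcripts hold none of it. Those 2, NM_000227 and NM_001127718, are the short forms, which start at 23872840 and 23873045 in GENCODE, both inside the RefSeq window with the AP-1 matches, and encode the α3A chain of laminin-332. Positions of the deposited amplicons could not be placed on the annotation to the base, so the shared part was also counted over 500 bases on either side, where it was 0% for both short forms. The level of the short LAMA3 transcript was therefore not measured in these libraries, and the LAMA3 values describe the long form. Different genes are read by different amplicons, so a rank of genes by RPM is a rank of reads and not of transcript levels.

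**Figure D2:**
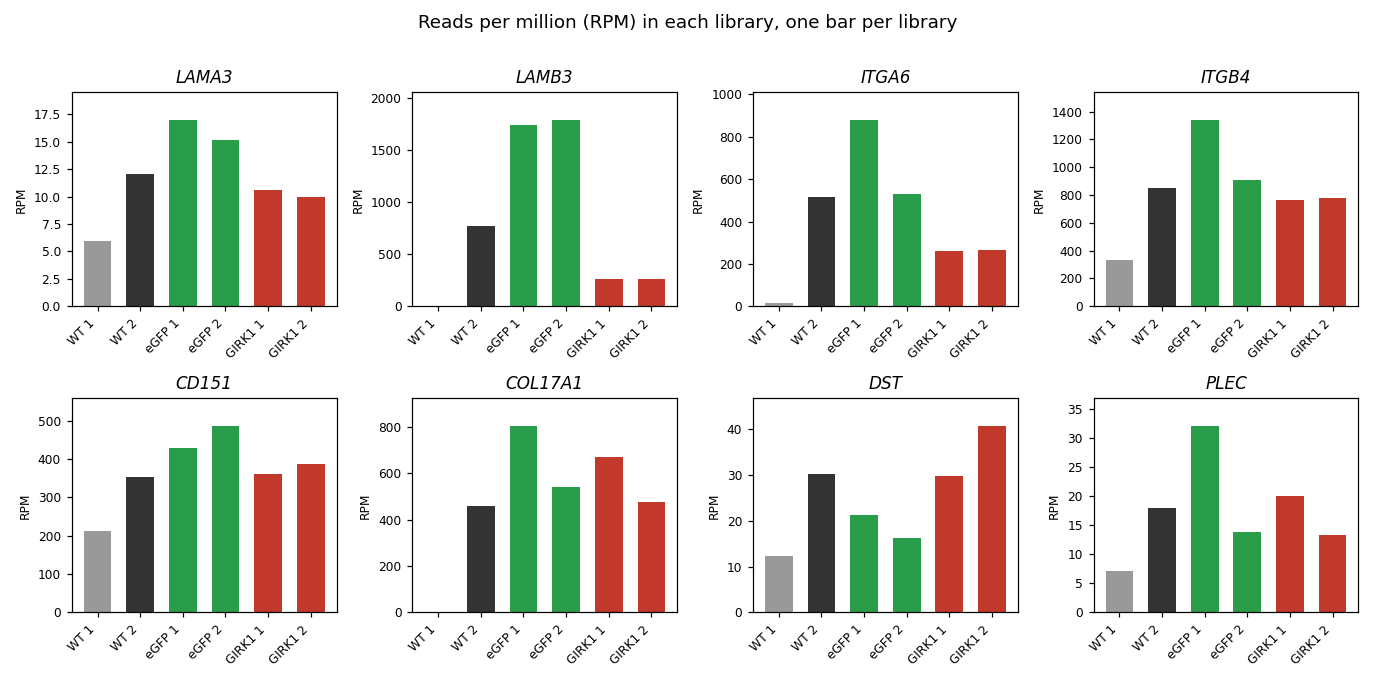
Bars give the RPM of each gene in each of the 6 libraries (1 bar per library, linear axes from 0, a separate scale for each gene), for the 8 genes. LAMB3 and ITGA6 are low in GIRK1 and near 0 in WT replicate 1, while COL17A1 and PLEC overlap between GIRK1 and eGFP and DST is higher in GIRK1 than in eGFP.

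The receptor genes formed the second group. ITGA6 (chromosome 2, 172427354 to 172506282, plus strand) encodes the α6 subunit that pairs with β4 in the hemidesmosome. It had 878 and 530.1 RPM in eGFP, 513 RPM in WT replicate 2, 261 and 268 RPM in GIRK1, and 16.8 RPM (42 reads) in WT replicate 1. The GIRK1 libraries lay below all the others but WT replicate 1, and the eGFP replicates were far apart from each other. The mean was 704 ± 246 RPM in eGFP and 264 ± 5.08 RPM in GIRK1 (SD, n = 2 each), 2.66-fold lower in GIRK1. The log2 difference was -1.47 (SE 0.31) from eGFP and -0.94 (SE 0.36) from WT replicate 2.

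ITGB4 (chromosome 17, 75721328 to 75757818, plus strand) encodes the β4 subunit, whose long cytoplasmic tail binds plectin. Its levels were 1338 and 907 RPM in eGFP, 852 RPM in WT replicate 2, 765 and 777 RPM in GIRK1, and 334 RPM in WT replicate 1. The GIRK1 libraries were again below both eGFP libraries and WT replicate 2, yet the gap to WT replicate 2 was 1.10-fold on the mean. Its log2 difference from eGFP was -0.59 (SE 0.27) and that from WT replicate 2 was -0.12 (SE 0.33). The difference from eGFP was -0.22 without eGFP replicate 1 and -0.90 without eGFP replicate 2. The 2 subunits of the same receptor thus differed in size of change, by -1.47 against -0.59 in log2 units, and whether that gap exceeds its error was not tested.

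CD151 (chromosome 11, 832843 to 839831, plus strand) encodes a tetraspanin that associates with laminin-binding integrins. It varied least of the 8 genes, with 428 and 485 RPM in eGFP, 353 RPM in WT replicate 2, 359.7 and 386 RPM in GIRK1, and 212 RPM in WT replicate 1. The GIRK1 libraries lay below both eGFP libraries and above WT replicate 2. Across the 5 libraries without WT replicate 1 its highest level was 1.37 times its lowest, against 6.94 times for LAMB3. The log2 difference from eGFP was -0.33 (SE 0.20).

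Collagen XVII, the transmembrane collagen of the hemidesmosome, is encoded by COL17A1 (chromosome 10, 104031286 to 104085957, minus strand). Its reads gave 804 and 541 RPM in eGFP, 461 RPM in WT replicate 2, and 669 and 479 RPM in GIRK1. The groups overlapped, and the replicates of each group differed by more than the group means. The log2 difference was -0.28 (SE 0.30) from eGFP and 0.34 (SE 0.37) from WT replicate 2, and without eGFP replicate 1 the first turned to 0.09. In WT replicate 1 the gene had no read, which allows up to 1.20 RPM (3 reads), so WT replicate 2 was at least 385-fold higher.

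Among the plakins, DST (chromosome 6, 56457987 to 56954628, minus strand) had a difference of the opposite sign, without a call. It had 21.3 and 16.2 RPM in eGFP, 30.2 RPM in WT replicate 2, 29.7 and 40.7 RPM in GIRK1, and 12.4 RPM in WT replicate 1. Both GIRK1 libraries were above both eGFP libraries, and WT replicate 2 fell between the GIRK1 libraries. The log2 difference from eGFP was 0.87 (SE 0.29), and from WT replicate 2 it was 0.25 (SE 0.35). Of the 4 RefSeq coding transcripts of DST, 3 hold the amplicon and NM_001723, the epithelial form that encodes BPAG1e, holds none of it, also within 500 bases on either side. The DST values therefore describe the longer plakin forms and not the hemidesmosomal one.

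PLEC (chromosome 8, 143915147 to 143976734, minus strand) encodes plectin, which links integrin β4 to keratin filaments. Its levels were 32.0 and 13.9 RPM in eGFP, 18.0 RPM in WT replicate 2, 20.0 and 13.3 RPM in GIRK1, and 7.18 RPM in WT replicate 1. The eGFP replicates differed 2.31-fold, more than the groups did, and the groups overlapped. The log2 difference from eGFP was -0.50 (SE 0.45), and it turned to 0.28 without eGFP replicate 1. Its amplicon lies whole in 1 of 8 RefSeq coding transcripts, and the other 7 share 22.2% of it. Plectin forms differ at their amino-terminal end, and here mainly 1 of them was read.

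For the other 5 genes (LAMB3, COL17A1, ITGA6, ITGB4 and CD151) all RefSeq coding transcripts hold the amplicon. Over 500 bases on either side, all LAMB3 transcripts were shared in full, while 1 ITGA6 transcript shared 88.1% and 3 ITGB4 transcripts 82.9%, so for these genes the reading of all forms holds only if the placement does. In ITGA6 the amplicon does not separate the forms that differ at the cytoplasmic end.

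**Figure D3:**
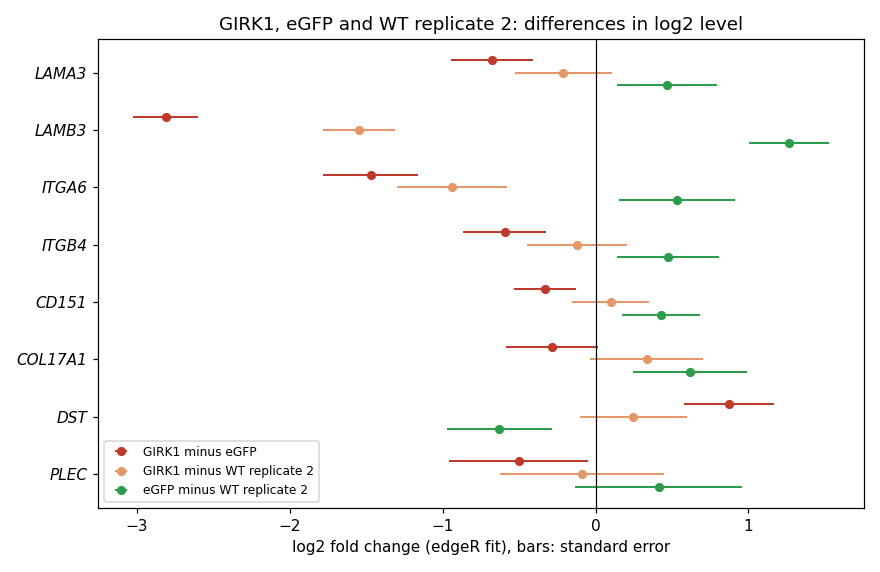
Points give the log2 fold change from the edgeR fits for the 8 genes in 3 comparisons, with bars of 1 standard error. For LAMB3 and ITGA6 the GIRK1 points lie left of 0 against both controls (-2.81 and -1.55 for LAMB3), and for the remaining genes the difference between GIRK1 and WT replicate 2 lies within 1 standard error of 0.

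Taken over the 8 genes, 7 log2 differences between GIRK1 and eGFP were negative and 1 was positive, with a median of -0.55. Over all 11279 genes tested the median was 0.01, and 48.9% were negative. Both GIRK1 libraries lay below both eGFP libraries in 5 of the 8 genes (LAMB3, LAMA3, ITGA6, ITGB4 and CD151), against 25.2% of all tested genes, and above both in 1 (DST), against 29.1%. Below both eGFP libraries and WT replicate 2 at once lay 4 of the 8, against 19.5%, and 0 lay above all of these, against 21.7%. By edgeR's quasi-likelihood test with an adjusted p below 0.05, 1 of the 8 genes was called lower (LAMB3), where 0.745% of all tested genes were called lower, and 0 were called higher, where 0.78% were. Since the genes were chosen with this contrast in view, nothing is read from these counts. With WT replicate 1 included, in a fit of all 6 libraries, 0 genes were called by edgeR, so LAMB3 was not, and 606 had an unadjusted p below 0.05. All 8 genes passed the filter on low counts.

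Against WT replicate 2 the picture was narrower. The median log2 difference of the 8 genes between GIRK1 and WT replicate 2 was -0.10, and 5 of 8 were negative, against 49.1% of 11779 tested genes. Of the 8, 0 were called, where 0.229% of tested genes were called in either direction. Between eGFP and WT replicate 2 the median was 0.47, and 7 of 8 differences were positive and 1 negative, where 48.8% of tested genes were negative. No gene of all 11779 tested was called in that comparison by edgeR (0.0%), while 418 had an unadjusted p below 0.05. Both eGFP libraries lay above WT replicate 2 in 6 of the 8 genes, against 27.8% of tested genes, and below it in 1 (DST), against 35.6%. LAMB3 and ITGA6 differed by -1.55 and -0.94 between GIRK1 and WT replicate 2, without a call. For LAMA3 and ITGB4 the difference was within 1 standard error of 0.

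The control replicates themselves differed in these genes. In 6 of 8 genes eGFP replicate 1 was above eGFP replicate 2, against 41.7% of tested genes, by 1.66-fold for ITGA6, 1.49-fold for COL17A1 and 1.47-fold for ITGB4. LAMB3 (ratio 0.976) and CD151 (0.882) were the other way round. KRT5, the main basal keratin and a neighbour of the hemidesmosome in the cell, was also higher in eGFP replicate 1 (10660.2 RPM) than in eGFP replicate 2 (5741 RPM). Its part in the differences was not tested. In a bulk sample, fewer cells that express a gene and less RNA per cell cannot be told apart.

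Genes around the laminin-332 and hemidesmosome core were read from 10 lists with 83 genes in the data, of which 68 were tested. By edgeR with an adjusted p below 0.05, 2 of the 68 were called between GIRK1 and eGFP, both higher in GIRK1 (KRT17 and KRT16). They made 2.94% of the 68, where 0.78% of all tested genes were called higher and 0.745% lower. The median log2 difference was -0.24. The lists were chosen with earlier results of these data known. Nothing is therefore read from these shares, and the p-values printed below are given as a description. The laminin receptors other than α6β4 showed no call among 6 tested genes. ITGA3, which encodes the α3 subunit of the other main laminin-332 receptor, had the highest mean RPM of the list over the 6 libraries. Its log2 difference was -0.04 (SE 0.21). For ITGB1, the gene of its β1 partner, it was -0.55 (SE 0.23). ITGB1 had 309 and 334 RPM in GIRK1, 503 and 408 RPM in eGFP and 399 RPM in WT replicate 2. Both GIRK1 libraries lay below these 3 in 19.5% of tested genes. SDC1, a syndecan, had the largest difference at -1.08 (SE 0.54), with 434 RPM in eGFP replicate 1 beside 133 RPM in replicate 2.

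The other laminin chains reported gave 5 tested genes without a call, 2 with negative and 3 with positive differences (median 0.19). LAMB1, which encodes the β1 chain of other laminins and had the largest difference and the highest such mean of them, stood at -1.23 (SE 0.29), with 264 and 489 RPM in eGFP, 466 RPM in WT replicate 2, and 174 and 152 RPM in GIRK1. LAMA2, LAMA4 and LAMC3 had no read in any library. Basement membrane partners showed 0 calls of 9, with a difference of -1.67 (SE 0.44) for COL4A1, a collagen IV chain, and of 0.97 (SE 0.26) for AGRN, which had the highest such mean. The 7 genes of laminin-332 processing and collagen XVII shedding had 0 calls, and 6 of 7 differences were negative (median -0.32). BMP1, whose protease cleaves laminin chains, stood at -0.92 (SE 0.30), and MMP14, highest in mean RPM, at -0.29 (SE 0.22). Among 4 tested tetraspanins all differences were negative without a call, led by CD9 at -1.05 (SE 0.48). CD9 had 263 RPM in eGFP replicate 1 beside 94.8 RPM in replicate 2, and 98.3 and 82.3 RPM in GIRK1, so its groups overlapped. CD63, highest in mean RPM, stood at -0.21 (SE 0.21).

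On the filament side, the 2 keratin genes called were KRT17 and KRT16, the latter known from stressed epithelium. KRT5 and KRT14, the keratin pair of basal cells, had negative differences from eGFP (-1.08 and -0.59) without a call. From WT replicate 2 GIRK1 differed by 0.08 for KRT5 and -0.72 for KRT14, and eGFP by 1.17 and -0.13, also without a call. KRT17 had 853 and 952 RPM in eGFP, 1570 RPM in WT replicate 2, and 3800.2 and 4513 RPM in GIRK1, with a log2 difference from eGFP of 2.17 (SE 0.22, edgeR adjusted p 0.0104). KRT16 had 27.1 and 26.0 RPM in eGFP, 26.0 RPM in WT replicate 2, and 73.2 and 62.1 RPM in GIRK1. Its difference from eGFP was 1.31 (SE 0.22, edgeR adjusted p 0.0473). That call was lost with DESeq2 size factors, with forward, reverse or covering reads alone, and in both fits of all 6 libraries. Both keratins were above all other libraries in GIRK1, the opposite side from LAMB3. Of all tested genes, 21.7% were above both eGFP libraries and WT replicate 2 in both GIRK1 libraries. From WT replicate 2 GIRK1 differed by 1.43 (SE 0.28) for KRT17 and 1.40 (SE 0.28) for KRT16, without a call. Keratins share sequence with close relatives and pseudogenes, so reads of KRT16 and KRT17 could be split between copies. KRT5 (-1.08, SE 0.35) was the highest of the list in mean RPM over the 6 libraries but lay below KRT17 in GIRK1 replicate 2. DSP, the desmosomal plakin desmoplakin, stood at 1.38 (SE 0.31), and the 4 plakins tested on this list gave 0 calls and 3 positive differences.

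Cell adhesion to other matrix is anchored by focal adhesions, and 13 of the 14 tested core genes had negative differences (median -0.63) with 0 calls. Both GIRK1 libraries were below both eGFP libraries in 8 of the 14, against the 25.2% of tested genes given above. ITGA5, the fibronectin receptor subunit, had the largest difference among its well-read genes at -1.45 (SE 0.31), and TNS4, highest in mean RPM, stood at -0.50 (SE 0.32). VCL, singled out after its values were seen, reached -3.52 on at most 3.32 RPM. The 4 other skin fragility genes tested had 0 calls, and JUP, plakoglobin, the largest and the highest in mean RPM, stood at 0.35 (SE 0.25). Of 8 tested basal regulators 5 were negative and 0 were called. SNAI2, a basal transcription factor, stood at -1.56 (SE 0.35), and KLF5, highest in mean RPM over the 6 libraries though not over these 4, at 0.08 (SE 0.35). TP63 had no read in any library, but its amplicon lies in 3 of 6 RefSeq coding transcripts and in none of the forms with the shorter amino terminus that basal epithelial cells make.

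Of the fibroblast (2 tested), luminal (7 tested) and immune markers (0 tested), 1 was called between GIRK1 and eGFP, higher in GIRK1. Over all tested genes 0.78% were called higher and 0.745% lower. DCN, a fibroblast marker, had 27.0 and 25.2 RPM in GIRK1, 0.78 and 3.71 RPM in eGFP and 10.2 RPM in WT replicate 2 (log2 difference from eGFP 3.37, SE 0.51, edgeR adjusted p 0.0371). The difference was 2.82 without eGFP replicate 1 and 4.94 without eGFP replicate 2. The call was lost in both fits of all 6 libraries and by the study's rule on fold change and coefficient of variation. From WT replicate 2 GIRK1 differed by 1.37 (SE 0.56) for DCN, without a call, and eGFP by -2.00 (SE 0.57). The 6 fibroblast markers summed to 31.9 and 33.5 RPM in GIRK1 and 10.7 and 8.60 RPM in eGFP, with DCN the highest in GIRK1 and COL1A1 in eGFP, and COL1A2 had no read in any library. The basal marker sum was 8954 and 9726 RPM in GIRK1 and 12862 and 7955 RPM in eGFP, and overlapped with KRT17 in it. Of the 6 basal markers tested, 3 (KRT5, KRT14 and SNAI2) were below both eGFP libraries in both GIRK1 libraries, without a call, where 25.2% of all tested genes were, and 1 (KRT17) was above, where 29.1% were. KRT5 had 4018 and 4052 RPM in GIRK1 and 3862 RPM in WT replicate 2. SNAI2 had 47.1 and 41.4 RPM in GIRK1 beside 165 and 86.3 RPM in eGFP and 61.8 RPM in WT replicate 2. The luminal sum was 1089 and 1061 RPM in GIRK1 and 698 and 1078 RPM in eGFP, and overlapped too. Of the 7 luminal markers tested, 3 (EPCAM, XBP1 and CDH1) were above both eGFP libraries in both GIRK1 libraries, where 29.1% of all tested genes were. Another 2 (GATA3 and KRT8) were below, where 25.2% were, and none of these markers was called. EPCAM, an epithelial adhesion molecule with the largest difference of them (0.69, SE 0.21), had 113 and 127 RPM in GIRK1 beside 63.6 and 81.7 RPM in eGFP. WT replicate 2, at 117 RPM, lay between the GIRK1 libraries, and GIRK1 differed from it by 0.06 in log2 (SE 0.26). The part of these markers in the laminin differences was not tested.

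**Figure D4:**
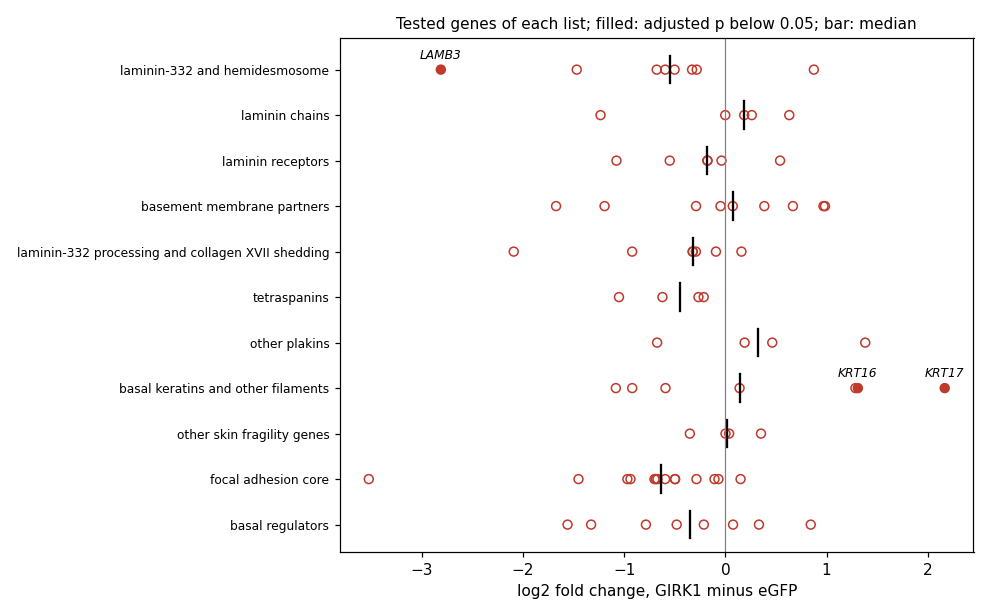
Each point is a tested gene of 1 list, placed by its log2 fold change between GIRK1 and eGFP, with filled points for an adjusted p below 0.05 (edgeR) and a bar at the median of the list. LAMB3 is the filled point at the left (-2.81) and KRT16 and KRT17 those at the right (1.31 and 2.17).

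The mean profile of the 8 genes was compared with all genes of at least 10 RPM on average (8250 genes), by the root mean square distance between centred log2(RPM + 1) profiles. Over the 6 libraries the nearest genes were PLAGL1 (distance 0.05), GNB4 (0.08), ZC3H12C (0.08), FAM126A (0.11) and SLC36A4 (0.12). Over the 5 libraries without WT replicate 1 they were DTX2, RAET1E, TTF2, CDK2AP1 and TBC1D25, all at 0.04. No gene was on both lists of nearest genes. Each of the 8 genes enters the mean it is compared with, which draws its distance down. In the 5-library profile LAMA3 (0.09) and ITGB4 (0.09) lay nearest to the mean of the 8 genes, while LAMB3 (0.96) and DST (0.71) departed from it most. Over the 6 libraries none of the 8 genes lay that near. There ITGA6 (0.58) was the nearest and COL17A1 (2.19) the farthest, with ITGB4 at 0.71, LAMA3 at 0.88 and LAMB3 at 1.70.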

How the data were processed

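The 8 genes and the lists around them were chosen with earlier results of these data known. Total RNA of 6 samples labelled MCF10A was turned into libraries with the Ion AmpliSeq Transcriptome kit. Mapping was done by the authors in the Ion Torrent suite, against the panel's own transcript reference. The deposited counts are whole, unnormalized reads per amplicon, and the RPM values that the authors deposited are these counts scaled to the library's total. Of 20812 amplicons, 10 spike-in amplicons had no read and were left out. How reads shared by near-identical genes were counted is not given in the sources used here.

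Counts of the 4 eGFP and GIRK1 libraries were tested with edgeR 4.0.16 and limma 3.58.1 in R 4.3.3 (TMM, filterByExpr, glmQLFit, glmQLFTest, Benjamini-Hochberg adjustment over 11279 genes, threshold 0.05). GIRK1 and eGFP were each compared with WT replicate 2 in a fit of 5 libraries (11779 genes). Standard errors were derived from the F value. The procedure was also run on simulated counts, and the outcome of that run is not given here. Alternatives were other normalizations, filters, library sets, a replicate block, a correction for amplicon GC content, DESeq2 1.42.0, the study's rule on fold change and coefficient of variation, and leaving out each replicate. Forward, reverse and covering reads were added after the data were seen.

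The text names the 8 genes and, from each list, every gene called between GIRK1 and eGFP, the gene with the largest difference among those with a mean of at least 50 reads, and the gene with the highest mean RPM. It also names the 5 genes with the nearest profiles, and ITGB1 as the partner of ITGA3. From the lists, 1 gene is not reported here and enters no list count. Gene positions and transcripts are from GENCODE v29 (GRCh38), and promoter sequences from RefSeq (GRCh38.p14). Intervals and the floor of 3 reads cover counting error only, since the reads carry no molecular identifiers.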

Additional observations from a re-analysis of the deposited data

Results flagged for a closer look

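Luminal markers in WT replicate 1 stood out, because this library was kept out of the main comparisons and held transcripts with no read in the other 5 libraries. In it ESR1 had 192 RPM, PGR 62.6 RPM, KRT19 924 RPM and TFF1 5106 RPM, and WT replicate 2 was among the libraries without a read for these genes.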

How the results depend on the processing

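Between GIRK1 and eGFP, 88 genes were called higher and 84 lower by edgeR, and 1 of the 8 laminin-332 and hemidesmosome genes was called. Without a filter on low counts the numbers were 321, 560 and 2, by DESeq2 241, 453 and 2, by the study's rule (means 2-fold apart, coefficient of variation under 0.7) they were 627, 682 and 2, and with all 6 libraries 0, 0 and 0. With a minimum of 10 reads in every library 52 genes were called lower, and with reverse reads alone 53. The replicate numbers were not known to pair the libraries (correlation of deviations 0.19 between eGFP and GIRK1 over 9091 genes). With a replicate block 217 genes were called higher, 373 lower and 2 of the 8, and with a replicate block over all 6 libraries 0, 0 and 0. Leaving out each replicate gave 56 to 1351 genes higher, 33 to 1582 lower and 1 to 4 of the 8, with the highest of each without eGFP replicate 2. A fit with a replicate left out holds 1 library in that group, so its spread comes from the remaining pair and nothing is read from its calls. Without eGFP replicate 1 the log2 differences were -2.78 for LAMB3, -0.99 for ITGA6 and 1.13 for DST. Without eGFP replicate 2 they were -2.86 for LAMB3, -1.83 for ITGA6, -0.90 for ITGB4 and -1.04 for PLEC. LAMB3 ranged from -2.86 to -2.67 over its 18 alternatives, and ITGA6 from -1.83 to -0.99. LAMB3 was not called in either fit of all 6 libraries. The genes were chosen with this contrast in view, so these ranges are a description. COL17A1 ranged from -0.59 to 0.09 and PLEC from -1.04 to 0.28, with a change of sign without eGFP replicate 1. Between GIRK1 and WT replicate 2, 27 genes were called, 133 without a filter, 16 with at least 10 reads in every library, 0 with all 6 libraries, and 34 to 576 when a replicate was left out (576 without eGFP replicate 1). Between eGFP and WT replicate 2 the 0 calls became 6 without a filter, and 5 to 1268 when a replicate was left out (1268 without eGFP replicate 2). WT replicate 2 could not be left out of these fits. The causes were not tested.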
